A study of Mus musculus with 12 samples.

Results

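The genes of the cytosolic ribosomal proteins were followed in blood-forming stem and progenitor cells of mice with and without the transcription factor NFAT5. Members were all genes on the array whose symbol starts with Rpl or Rps and a number, together with Rplp0, Rplp1 and Rpsa, leaving out the Rps6k kinases and pseudogene symbols that contain -ps. The rule also names Rplp2, which was not analysed here. It uses names and no measured value, and took 68 of 19494 genes, each with 1 probe set. They comprised 33 proteins of the large (60S) subunit, 22 of the small (40S) subunit, 12 copies that have a gene of their own, and Rps19bp1, which is named after Rps19 and is not a ribosomal protein. The 55 subunit proteins are called canonical here, and 9 of the copies (Rpl3l, Rpl7l1, Rpl10l, Rpl22l1, Rpl36al, Rpl39l, Rps4l, Rps27l and Rps27rt) came from a list, while Rpl32l, Rpl37rt and Rps23rg1 were set apart as copies after values had been seen. Ribosomal proteins beyond these 68 were not analysed here.

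The HSC arrays came from Nfat5 fl/fl Vav-Cre mice (KO; mice 2, 11 and 70) and from Nfat5 +/+ Vav-Cre mice (WT; mice 3, 12 and 64), and the MPP arrays came from the same 6 animals. HSC are haematopoietic stem cells, sorted as CD48-CD150+ cells of the LSK compartment (lineage-negative, Sca-1 and Kit positive bone marrow cells), and MPP are multipotent progenitors, sorted as CD48+CD150- cells of that compartment. All mice were untreated and all carry the Vav-Cre transgene, which recombines throughout the haematopoietic system, so the control animals lack floxed Nfat5 alleles and not the recombinase. Each mouse gave 1 array per population, which makes 4 groups of 3 arrays, and values are deposited as log2 signals after RMA normalization, on which a step of 1 is a doubling.

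Ribosomes are built from ribosomal RNA and about equal numbers of each ribosomal protein, so the genes of these proteins are transcribed at high and matched rates in most tissues. Many of their mRNAs begin with a C followed by a run of pyrimidines, the TOP motif, through which mTORC1 and LARP1 set how much of each mRNA is translated. In bone marrow they are known for 2 things: haematopoietic stem cells make protein at a lower rate than the progenitors that descend from them, and loss of 1 copy of single ribosomal protein genes causes Diamond-Blackfan anaemia in humans, in which red cell production fails.

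Array medians over all probe sets lay between 5.81 and 5.91. Nfat5 read 7.34 to 7.89 on KO HSC arrays and 8.27 to 8.99 on WT HSC arrays, and 6.99 to 7.45 on KO MPP arrays and 7.82 to 8.28 on WT MPP arrays, with p = 0.1 by a two-sided exact permutation test in each population, the smallest that 3 against 3 allows. The KO signal was 53.1% of WT in HSC and 54.8% in MPP. The limma test used below did not call Nfat5 either, with an adjusted p of 0.566 in HSC and near 1 in MPP. All 11 stem cell markers tested had higher fitted signals in HSC than in MPP in both genotypes, and all 6 progenitor markers (Cd48 and Flt3 among them) passed the limma test as lower in HSC in both genotypes. Markers of mature neutrophils were not uniform: the mean of the 9 on the array ranged from 5.69 to 7.78 over KO HSC arrays, from 5.93 to 8.02 over WT HSC arrays, from 5.85 to 6.86 over KO MPP arrays and from 4.82 to 7.12 over WT MPP arrays, and their part in the differences below was not tested. A bulk array cannot tell fewer cells of a type from less RNA per cell.

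The ribosomal proteins gave some of the brightest probe sets on the arrays. The canonical members had a median signal of 11.77 over the 12 arrays, against 5.93 for all genes. Of 55, 54 lay above the 95th percentile of all genes (9.32) and 45 above the 99th (10.87), and they made up 40 of the 100 brightest genes. The 5 brightest were Rps21 at 12.62, Rpl41, the shortest protein of the ribosome, at 12.60, Rps29 at 12.49, Rpl38, which is known in mice for its role in the translation of Hox mRNAs, at 12.42, and Rps24 at 12.41. The lowest canonical signal was that of Rplp0, the base of the P stalk that recruits elongation factors, at 8.98. Signals of different probe sets do not rank amounts of RNA, because probes differ in how brightly they answer to the same amount, and whether probe sets this bright still respond in proportion was not tested.

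The copies spread over the whole range of signals. Rpl37rt read 11.74, Rpl36al 11.43, Rps27rt 11.17, Rpl22l1 10.14 and Rps27l 9.49, all above the 95th percentile of all genes, and Rpl32l read 8.28, Rpl7l1 8.14 and Rps23rg1 7.19. The dimmest members were Rps19bp1 at 7.003, Rps4l at 6.95, Rpl10l at 6.91, Rpl3l, a copy of Rpl3 known from muscle, at 5.73, and Rpl39l, a copy known from testis, at 4.95. Rpl39l lay just under the level of 4.96 below which genes were left out of the tests, so 67 of the 68 members were tested. Where a copy is nearly identical to its parent gene, as retrotransposed copies such as Rps27rt and Rpl37rt can be, its probes may also bind the parent's RNA, and its signal is uncertain for that reason.

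**Figure D1:**
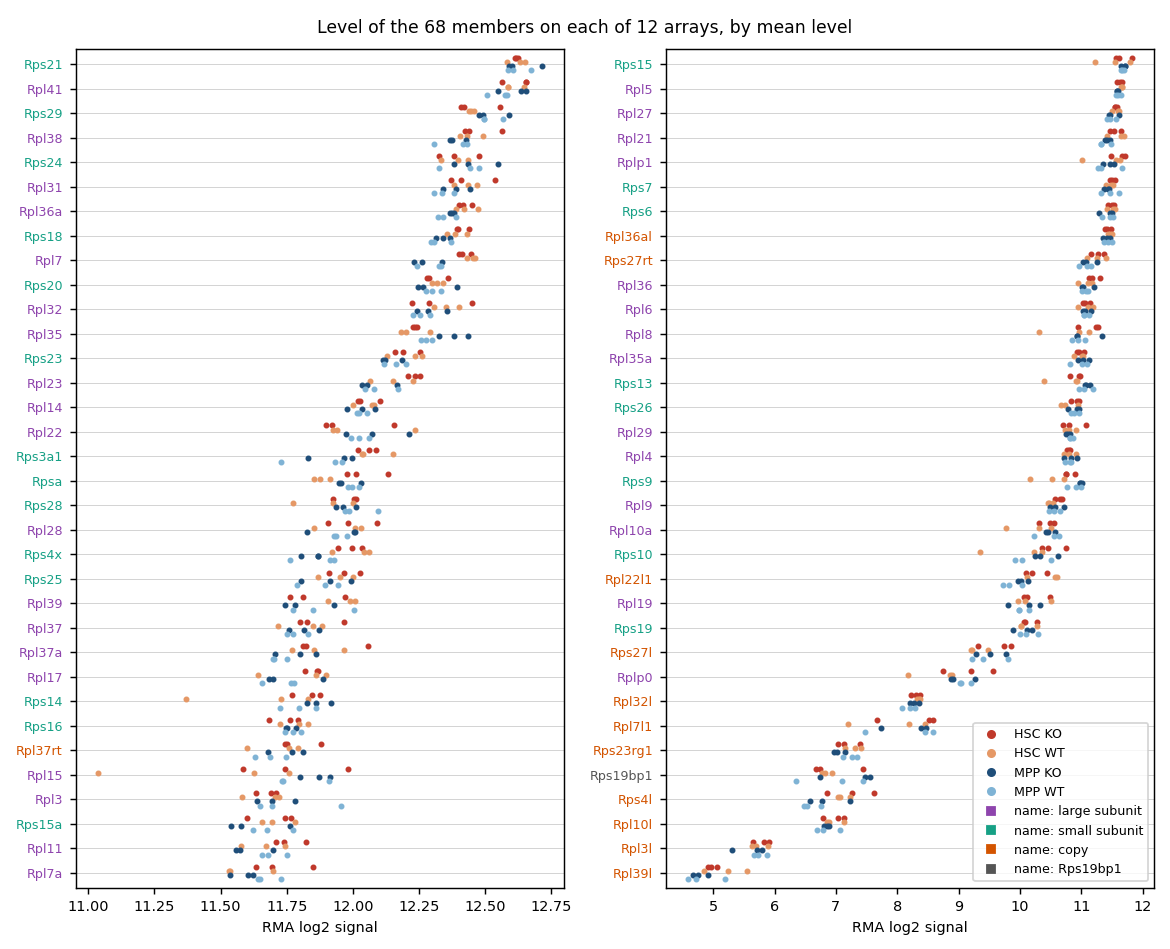
RMA log2 signal of the 68 members on each of 12 arrays, ordered by mean signal in 2 panels whose horizontal axes differ in range. Each point is 1 array, coloured by group (KO before WT, HSC before MPP), and the colour of the name gives the class. In the left panel the points of a gene lie close together, with HSC array of WT mouse 64 as the isolated low point of Rpl15 at 11.04 and Rps14 at 11.37; in the right panel the same array is the low point of Rps10 at 9.34 and Rplp0 at 8.17.

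Signals of the canonical proteins varied little between mice. The standard deviation between the arrays of a group, pooled over the 4 groups, had a median of 0.084 over the 55 canonical members (range 0.030 to 0.345), of 0.161 over the 12 copies and of 0.286 over the 14553 other genes tested. It was under 0.1 for 41 canonical members (74.5%), against 1.45% of the other genes. Bright genes vary less in general: among genes with a mean signal of 10 or more, the median was 0.082 for 54 canonical members and 0.193 for 450 other genes, of which 13.8% were under 0.1. Above that cut the sets were not matched by signal, and 45 of 55 canonical members lay above 10.87, the 99th percentile of all genes. These shares describe the arrays and were not tested.

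The steadiest member was Rpl5, which with Rpl11 and the 5S ribosomal RNA binds Mdm2 and so links ribosome assembly to p53. Rpl5 read 11.58, 11.64 and 11.66 in KO HSC (mice 2, 11 and 70), 11.66, 11.66 and 11.64 in WT HSC (mice 3, 12 and 64), 11.60, 11.58 and 11.58 in KO MPP and 11.57, 11.60 and 11.65 in WT MPP. All 12 values thus lay within 0.1 of each other. Next came Rpl36a with a standard deviation of 0.031, Rps18 with 0.033, Rpl7 with 0.039 and Rpl35, which lies at the exit of the peptide tunnel, with 0.042. The largest were those of Rpl7l1 at 0.553, Rps19bp1 at 0.419, Rps10 at 0.345, Rplp0 at 0.312 and Rps4l at 0.271. Rpl7l1 read 7.67, 8.52 and 8.58 in KO HSC, 7.20, 8.45 and 8.20 in WT HSC, 7.73, 8.39 and 8.46 in KO MPP and 8.44, 8.58 and 7.47 in WT MPP, so that each group held 1 low array, that of mouse 2 or mouse 3 in 3 groups and of mouse 64 in WT MPP.

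**Figure D2:**
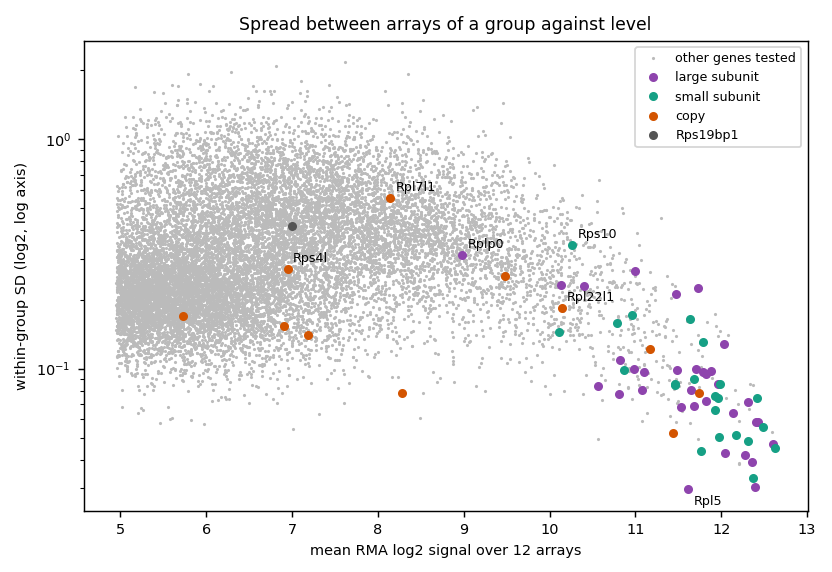
Standard deviation between arrays of a group, pooled over 4 groups (vertical axis, log scale), against the mean RMA log2 signal over 12 arrays (horizontal axis), with 1 point per gene tested. Most canonical members lie at the lower right, where 41 of 55 are under 0.1, while Rpl7l1 (0.553), Rps10 (0.345) and Rplp0 (0.312) lie with the other genes of their signal.

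The start sites of the members show how these genes are built. RefSeq (GRCm38.p6) gave a promoter for 55 of the 68 members, 43 of them canonical and 11 copies. A TOP-like tract, taken as a C followed by at least 5 pyrimidines on the sense strand and starting within 10 bases of the annotated start, was found in 22 of 43 canonical promoters (51.2%), in 6 of 11 copies (54.5%) and in 21.9% of 27025 genes. CCGGAAG on either strand, the core recognised by the GABPA family of ETS factors, was found between 250 bases before and 50 after the start in 19 canonical promoters (44.2%), 2 copies (18.2%) and 9.93% of all genes. TATAAA was found in 5 canonical promoters (11.6%), 2 copies (18.2%) and 15.7% of all genes, and AAGATGGC, the core of the YY1 motif, in 3 (6.98%), 1 (9.09%) and 3.19%, also on either strand. A match describes the letters and does not show a site in use.

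The following lines give 40 bases before the start and 20 bases from the start on, 5′ to 3′ on the sense strand, with TOP-like tracts and CCGGAAG in capitals. Rpl5 and Rps10 are shown as a steady and a variable member, Rpl22 with its copy Rpl22l1, and Rps9 and Rps3a1 for their values in HSC and MPP. They lie at chr5:107900488-107900547 (+), chr17:27635225-27635284 (-), chr4:152325686-152325745 (+, the first of 2 starts in the table), chr3:28805468-28805527 (+), chr7:3704001-3704060 (+) and chr3:86142649-86142708 (-).
Rpl5: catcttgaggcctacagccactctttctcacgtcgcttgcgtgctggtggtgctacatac
Rps10: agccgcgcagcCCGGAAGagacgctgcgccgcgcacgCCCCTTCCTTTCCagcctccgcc
Rpl22: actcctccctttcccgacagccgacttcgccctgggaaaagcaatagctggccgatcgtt
Rpl22l1: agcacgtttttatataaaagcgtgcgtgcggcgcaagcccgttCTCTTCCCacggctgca
Rps9: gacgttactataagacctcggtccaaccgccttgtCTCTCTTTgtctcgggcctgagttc
Rps3a1: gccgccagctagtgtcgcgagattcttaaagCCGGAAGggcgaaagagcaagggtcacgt
Rps10 holds both elements, Rpl22l1 and Rps9 hold a tract only and Rps3a1 holds CCGGAAG only, while Rpl5 and Rpl22 hold neither in these windows.

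One array had the lowest mean signal of the ribosomal proteins, and not of these alone. The mean signal of the 55 canonical members was 11.69, 11.64 and 11.59 in KO HSC (mice 2, 11 and 70), 11.63, 11.62 and 11.44 in WT HSC (mice 3, 12 and 64), 11.61, 11.57 and 11.63 in KO MPP and 11.59, 11.56 and 11.62 in WT MPP. The HSC array of WT mouse 64 was the lowest of 12, and the other 11 lay within 11.56 to 11.69. It was also the lowest of 12 for the mean of the translation factors described below, at 9.28, with 9.43 to 9.74 on the others. For the stem cell markers it was the lowest HSC array, at 7.61, with 7.86 to 8.29 on the other HSC arrays. For the ribosome biogenesis genes described below, the HSC array of KO mouse 2 read lower, at 7.72 against 7.77. On the HSC array of WT mouse 64, 21 of 55 canonical members had their lowest value of all 12 arrays. The share of all genes at their lowest there was not determined. Of the 55, 10 lay more than 0.3 below the mean of the other WT HSC arrays, where each other array held 0 to 2 such members. Over all genes, 21.8% lay that far below on this array, and 17.6% to 24.1% did on the other 11. The 10 canonical members were Rps10 (-0.95), Rpl8, which lies at the peptidyl transferase centre (-0.73), Rplp0 (-0.70), Rpl15 (-0.66), Rpl10a of the L1 stalk (-0.63), Rplp1 of the P stalk (-0.58), Rps13 (-0.54), Rps15 (-0.45), Rps9 (-0.45) and Rps14 (-0.41). All 10 were at their lowest of 12 arrays there. The same mouse's MPP array had 0 canonical members more than 0.3 below the other WT MPP arrays. The HSC array of WT mouse 64 was therefore left out in an added analysis, chosen after its values were seen, and values without it are given below.

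**Figure D3:**
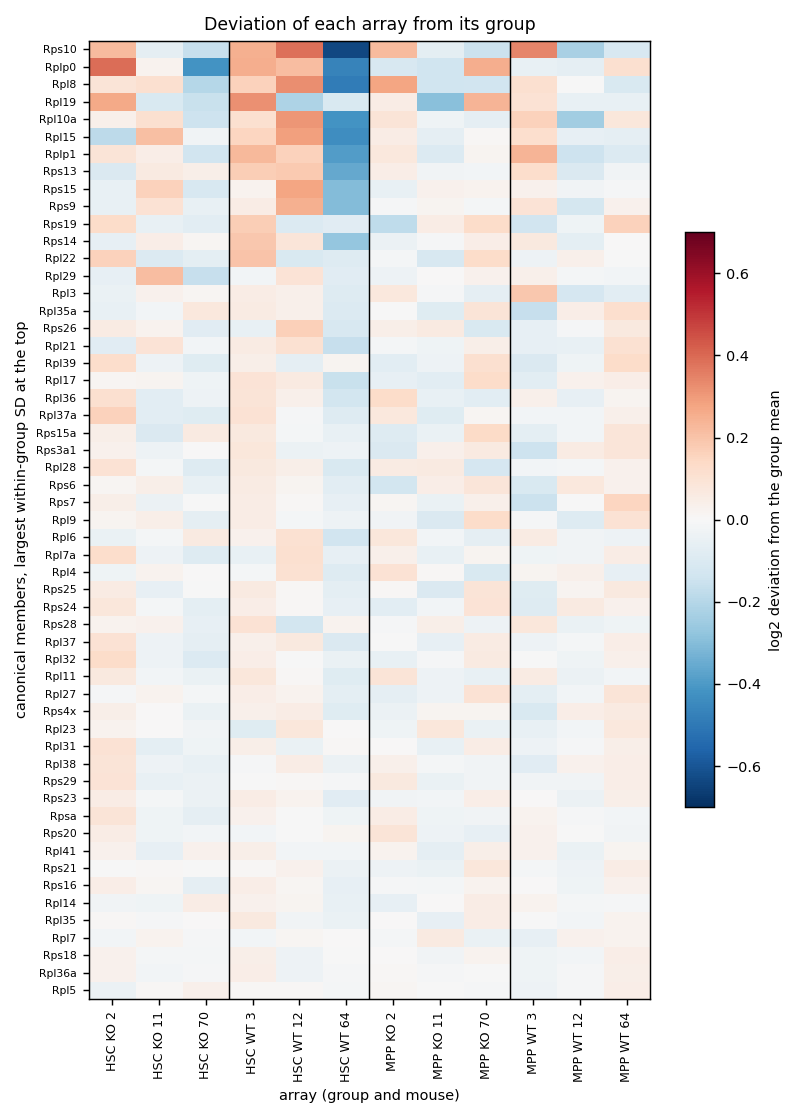
Deviation of each array from the mean of its group (colour, log2) for the 55 canonical members, largest standard deviation at the top, with the 4 groups of 3 arrays set apart by lines. The HSC array of WT mouse 64 is blue through the upper rows, where Rps10 lies 0.95 below the other WT HSC arrays, and the lower rows are nearly white on all 12 arrays.

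In stem cells no ribosomal protein gene was called between genotypes. The limma test over all genes called 0 of 67 members between KO and WT HSC, where it called 0 of 14620 genes (0%), and 0 members and 919 genes (6.29%) had an unadjusted p under 0.05. With limma's spread trended by signal level and made robust, 2 members and 6.16% of all genes had such a p. The canonical members averaged 11.64 ± 0.048 in KO HSC and 11.57 ± 0.11 in WT HSC (SD, n = 3 each). Their fitted log2 differences had a median of 0.027, against 0.021 over all genes, and 37 of 55 were above 0. Of the 55, 39 differed by less than 0.1, and for 45 the 95% interval lay within 0.5 of 0 in either direction. Without the HSC array of WT mouse 64 the median was -0.0069 and 23 of 55 were above 0.

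The 5 highest differences between KO and WT HSC belonged to Rps10, Rplp0, Rpl8, Rps27l and Rps9, of which Rps10, Rplp0, Rpl8 and Rps9 are among the 10 members that were low on that array. Rps10, a 40S protein encoded by a Diamond-Blackfan gene, read 10.74, 10.46 and 10.36 in KO HSC and 10.23, 10.36 and 9.34 in WT HSC. The groups overlap slightly, at 10.36 for KO mouse 70 and WT mouse 12, and the difference of 0.54 (SE 0.27, adjusted p = 0.811 by limma over all genes) was 0.22 without the HSC array of WT mouse 64. Rplp0 read 9.56, 9.19 and 8.75 in KO HSC and 8.89, 8.86 and 8.17 in WT HSC, which overlap. Its difference was 0.53 (SE 0.24, adjusted p = 0.798, the lowest of the members) and 0.29 without that array. Rpl8 differed by 0.36 (0.12 without it) and Rps27l, a copy of Rps27 known as a p53 target, by 0.33 (0.28 without it).

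Rps9, a 40S protein near the entry of the mRNA channel, read 10.74, 10.90 and 10.74 in KO HSC and 10.52, 10.72 and 10.17 in WT HSC. All KO values lay above all WT values, by a margin that was small between KO mice 2 and 70 and WT mouse 12. The difference was 0.32 (SE 0.16, adjusted p = 0.806 by limma), or 0.17 without the HSC array of WT mouse 64. Groups did not overlap for 3 members, Rps9, Rpsa and Rpl9, all higher in KO, against 8.87% of all genes in either direction. Rpsa, a 40S protein also known as the laminin receptor, read 12.13, 12.01 and 11.98 in KO HSC and 11.91, 11.87 and 11.85 in WT HSC. The lowest differences were those of Rpl22l1 (-0.19), Rpl39 (-0.12), Rps23rg1 (-0.10), Rpl32l (-0.042) and Rpl22 (-0.041). With the HSC array of WT mouse 64 left out, Rpl22l1 was at -0.34 (unadjusted p = 0.0608 and adjusted p = 0.835 by limma) and Rpl22 at -0.087.

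Progenitors gave no call among the members either. In MPP, 0 of 67 members and 0 of 14620 genes (0%) were called, with 0 members and 466 genes (3.19%) at an unadjusted p under 0.05. Canonical members averaged 11.60 ± 0.029 in KO MPP and 11.59 ± 0.028 in WT MPP (SD, n = 3 each). Their differences ran from -0.087 to 0.24 with a median of 0.016, against 0.002 over all genes, and 34 of 55 were above 0. Of 55, 51 differed by less than 0.1, and for 52 the 95% interval lay within 0.5 of 0. The highest differences were those of Rps19bp1 (0.30), Rps4l (0.27), Rps10 (0.24), Rpl22l1 (0.18) and Rpl8 (0.12), and the lowest those of Rps23rg1 (-0.20), Rpl3l (-0.16), Rpl11 (-0.087), Rpl7a (-0.085) and Rplp0 (-0.069).

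Groups did not overlap for 2 members, Rpl35, which stood higher in KO MPP, and Rpl7a, which stood lower, against 9.49% of all genes. Rpl35 read 12.38, 12.33 and 12.44 in KO MPP and 12.27, 12.26 and 12.30 in WT MPP. Rpl7a read 11.62, 11.54 and 11.60 in KO MPP and 11.64, 11.65 and 11.73 in WT MPP. Both gaps were narrow, with a difference of 0.10 (SE 0.11) for Rpl35 and of -0.085 (SE 0.12) for Rpl7a, and limma gave both an adjusted p near 1.

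**Figure D4:**
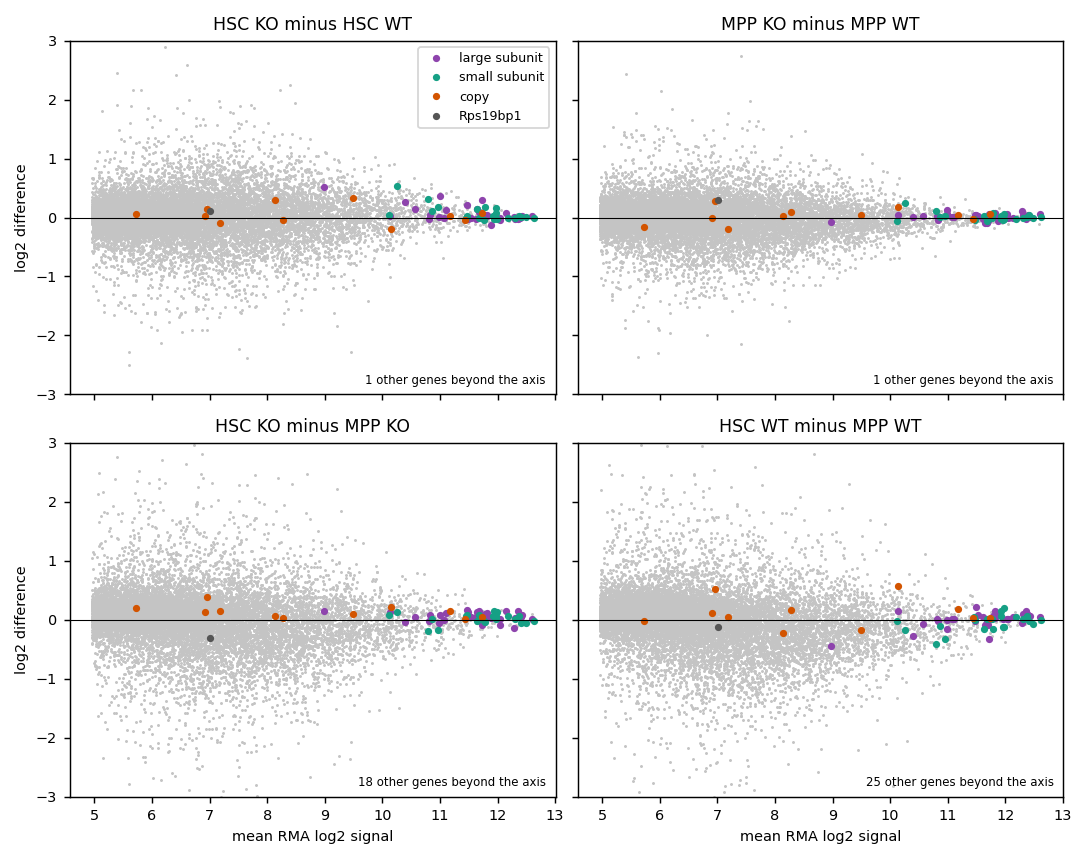
Log2 difference (vertical axis) against mean RMA log2 signal (horizontal axis) for all genes tested, in 4 panels: KO minus WT in HSC and in MPP, and HSC minus MPP in KO and in WT mice. Members are coloured by class and the few genes beyond the axis are counted in each panel. The canonical members form a narrow band at the right around 0, with medians of 0.027, 0.016, 0.049 and 0.010, while Rpl22l1 (0.57) and Rps4l (0.52) lie above it in the panel of WT mice.

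The genotype effect was set against itself in both populations by the interaction, the difference KO minus WT in HSC less that in MPP. The limma test called 0 members and 0 of 14620 genes (0%), with 0 members and 658 genes (4.50%) at an unadjusted p under 0.05. With limma's spread trended by signal level and made robust, 1 member and 4.36% of all genes had such a p. Interaction values of the canonical members had a median of 0.015, against 0.013 over all genes. The highest were those of Rplp0 (0.59, SE 0.35), Rps10 (0.30), Rps27l (0.28), Rpl7l1 (0.28) and Rpl10a (0.25), and the lowest those of Rpl22l1 (-0.36, SE 0.24), Rps19bp1 (-0.19), Rps4l (-0.14), Rpl32l (-0.13) and Rpl22 (-0.10). Without the HSC array of WT mouse 64 the canonical median was -0.024 and 21 of 55 values were above 0. Rplp0 was then at 0.36, Rps10 at -0.015, Rpl10a at 0.037, Rps4l at -0.078, Rpl22 at -0.15 and Rpl22l1 at -0.52 (unadjusted p = 0.0384, adjusted p near 1 by limma).

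Between stem cells and progenitors limma called many genes, and 0 of them were ribosomal protein genes. In WT mice 0 of 67 members were called, while 302 of 14620 genes were (2.07%), 109 higher (0.746%) and 193 lower (1.32%) in HSC. Canonical differences between WT HSC and WT MPP had a median of 0.010, against 0.032 over all genes, with 32 of 55 above 0 and a range from -0.45 to 0.21. For 47 of 55 the 95% interval lay within 0.5 of 0. The median size of a difference, regardless of sign, was 0.067 for canonical members and 0.222 for all genes. Without the HSC array of WT mouse 64 the canonical median was 0.051 and 41 of 55 were above 0.

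In all, 3 members had an unadjusted p under 0.05 in this comparison, where 14.1% of all genes did. With limma's spread trended by signal level and made robust, 7 members and 13.8% of all genes had such a p. Rpl22l1, a copy of Rpl22 whose mRNA the RPL22 protein is known to repress in mice, read 10.58, 10.60 and 10.12 in WT HSC and 9.73, 10.03 and 9.82 in WT MPP. All HSC values lay above all MPP values, although mouse 64 in HSC and mouse 12 in MPP came close, and the difference was 0.57 (SE 0.17, adjusted p = 0.139 by limma), or 0.73 (adjusted p = 0.0757) without the HSC array of WT mouse 64. Rpl22 itself read 12.23, 11.92 and 11.94 in WT HSC and 11.99, 12.06 and 12.02 in WT MPP, which overlap. Rps4l, an autosomal copy of the X-linked Rps4x, read 7.04, 7.06 and 7.23 in WT HSC and 6.52, 6.48 and 6.75 in WT MPP, again with all HSC values above. Its difference was 0.52 (SE 0.22, adjusted p = 0.316), and Rps4x read 12.04, 12.06 and 11.92 in WT HSC and 11.76, 11.91 and 11.93 in WT MPP.

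Rps9 went the other way and read 10.52, 10.72 and 10.17 in WT HSC and 10.99, 10.76 and 10.92 in WT MPP. The HSC values were all below the MPP values, with a difference of -0.42 (SE 0.16, adjusted p = 0.249), or -0.27 without the HSC array of WT mouse 64. Next to it on the low side were Rplp0 (-0.45, and -0.21 without that array), Rps13 (-0.32, and -0.14), Rpl15 (-0.32, and -0.10) and Rpl10a (-0.28, and -0.070), all low on that array. Rps10 turned sign, at -0.18 with it and 0.14 without it. On the high side Rpl22l1 and Rps4l were followed by Rpl21 (0.21, and 0.29 without that array), Rps3a1 (0.20, and 0.22) and Rps27rt (0.17, and 0.25). Groups did not overlap for 14 of 67 members (20.9%), against 21.3% of all genes. Higher in HSC were Rpl22l1, Rps4l, Rps3a1, Rpl7, Rpl32l, Rpl37a, Rpl32, Rpl36a and Rpl41, and lower were Rps9, Rps13, Rplp0, Rpsa and Rps29.

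In KO mice 0 of 67 members were called between HSC and MPP, while 184 of 14620 genes were (1.26%), 76 higher (0.520%) and 108 lower (0.739%). At an unadjusted p under 0.05 there were 0 members and 12.4% of all genes. With limma's spread trended by signal level and made robust, 3 members and 12.4% of all genes had such a p. Canonical differences had a median of 0.049, against 0.051 over all genes, with 39 of 55 above 0, a range from -0.20 to 0.17 and 47 of 55 intervals within 0.5 of 0. The highest were those of Rps4l (0.39), Rpl22l1 (0.21), Rpl3l (0.19), Rplp1 (0.17) and Rpl23 (0.15), and the lowest those of Rps19bp1 (-0.31), Rps9 (-0.20), Rps13 (-0.18), Rpl35 (-0.15) and Rpl22 (-0.096). Rpl22l1 read 10.44, 10.19 and 10.11 in KO HSC and 10.01, 9.96 and 10.13 in KO MPP, which overlap through mouse 70. Rps9 read 10.74, 10.90 and 10.74 in KO HSC and 10.99, 11.01 and 10.98 in KO MPP, so the HSC values were lower without overlap here as in WT mice, on arrays of other animals. Groups did not overlap for 13 of 67 members (19.4%), against 17.1% of all genes. Higher in HSC were Rpl7, Rpl23, Rpl11, Rps4x, Rpl7a, Rpl21, Rps3a1, Rps7, Rps18 and Rpl36a, and lower were Rpl35, Rps9 and Rps13.

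With both genotypes averaged, the comparison of HSC and MPP rests on 6 arrays each and on the same arrays as the pair of comparisons above. The test called 0 of 67 members and 709 of 14620 genes (4.85%), 282 higher (1.93%) and 427 lower (2.92%) in HSC. Canonical differences had a median of 0.029, against 0.047 over all genes, and ran from -0.31 to 0.17, with 51 of 55 intervals within 0.5 of 0. Without the HSC array of WT mouse 64 the canonical median was 0.049 and the range -0.23 to 0.21, with 38 of 55 above 0. In the test with all arrays, 3 members (Rpl22l1, Rps4l and Rps9) had an unadjusted p under 0.05, where 19.6% of all genes did. This count depends on how limma moderates the spread. With the spread trended by signal level and made robust, 11 members and 19.5% of all genes had such a p.

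Rpl22l1 averaged 10.34 in HSC and 9.95 in MPP, a difference of 0.39 (SE 0.12, 95% interval 0.13 to 0.66, adjusted p = 0.0974 by limma), and was higher in the HSC array of 5 of 6 mice. It passed at 0.47 (adjusted p = 0.0425) without the HSC array of WT mouse 64 and at 0.47 (adjusted p = 0.0491) after a further quantile normalization. Rps4l averaged 7.18 in HSC and 6.72 in MPP, a difference of 0.46 (SE 0.16, adjusted p = 0.137), and was higher in HSC in 6 of 6 mice, by 0.85 in mouse 2 and 0.04 in mouse 11. Rps9 averaged 10.63 in HSC and 10.94 in MPP, a difference of -0.31 (SE 0.11, adjusted p = 0.151), and was lower in HSC in 6 of 6 mice. After these, the highest differences were those of Rpl21 (0.17), Rps3a1 (0.16) and Rps27rt (0.16), and the lowest those of Rps13 (-0.25), Rps19bp1 (-0.21), Rpl15 (-0.21) and Rpl10a (-0.16). Rps9 was at -0.23, Rps13 at -0.16, Rpl15 at -0.096 and Rpl10a at -0.052 without the HSC array of WT mouse 64.

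**Figure D5:**
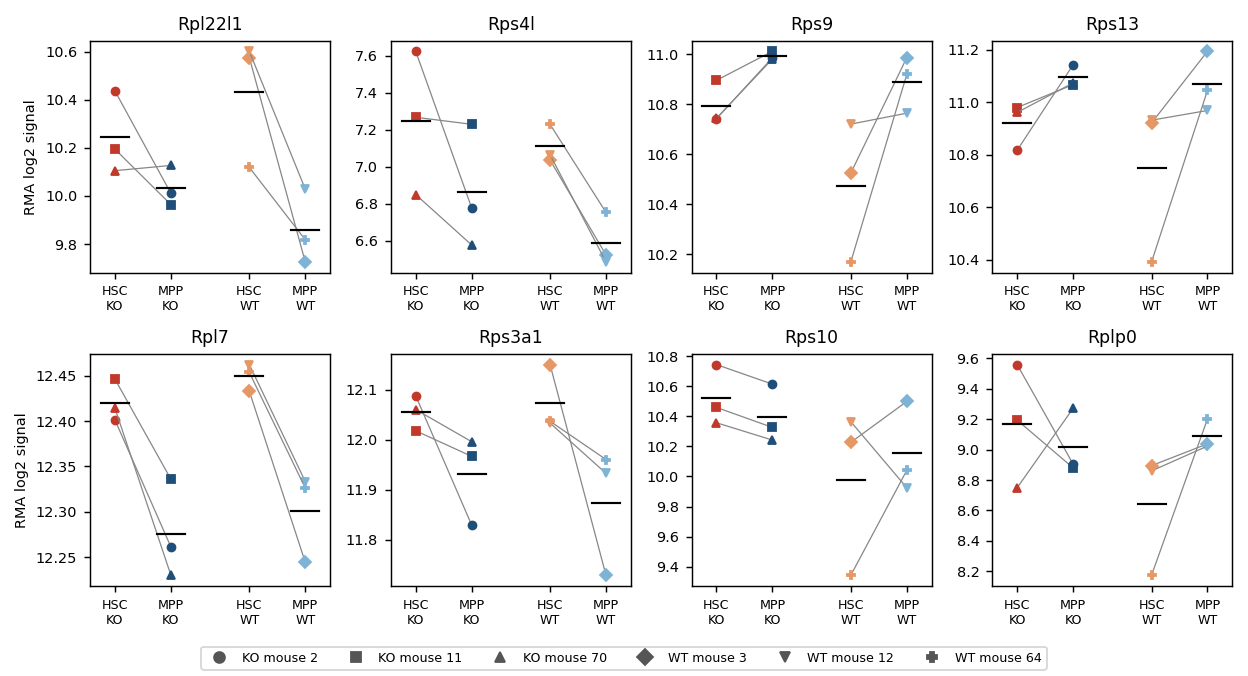
RMA log2 signal of 8 members in HSC (left of each pair) and MPP (right of each pair) of KO mice and WT mice, with 1 symbol per mouse, a grey line joining the arrays of a mouse and a black bar at the group mean. The vertical axes differ between panels. Rpl7 is higher in HSC than in MPP in every mouse, by 0.11 to 0.19, while Rps10 and Rplp0 are set apart in WT HSC by mouse 64 at 9.34 and 8.17.

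A few members were higher in HSC than in MPP in all animals, and Rpl7 by similar amounts. Rpl7, a 60S protein, read 12.40, 12.45 and 12.41 in KO HSC and 12.26, 12.34 and 12.23 in KO MPP. In WT mice it read 12.43, 12.46 and 12.45 in HSC and 12.24, 12.33 and 12.33 in MPP. The lowest HSC array was above the highest MPP array, and the difference within a mouse lay between 0.11 and 0.19. It averaged 0.15, and limma gave it an adjusted p of 0.0326 under a moderation of the spread that was both trended by signal level and robust, the 1 setting in which Rpl7 passed. With limma's spread moderated towards 1 value for all genes, Rpl7 had a standard error of 0.079 and did not pass.

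Rps3a1, a 40S protein, read 12.09, 12.02 and 12.06 in KO HSC and 11.83, 11.97 and 12.00 in KO MPP, and 12.15, 12.03 and 12.04 in WT HSC and 11.73, 11.93 and 11.96 in WT MPP. Rpl36a, which contacts the tRNA exit site, read 12.45, 12.40 and 12.42 in KO HSC and 12.38, 12.37 and 12.37 in KO MPP, and 12.47, 12.39 and 12.42 in WT HSC and 12.32, 12.34 and 12.39 in WT MPP. Within a mouse, Rps3a1 differed by 0.051 to 0.42 and Rpl36a by 0.027 to 0.15. For 3 of 67 members (4.48%), Rpl7, Rps3a1 and Rpl36a, all 6 HSC arrays read above all 6 MPP arrays, and for 0 members below. Over all genes, 4.21% separated in either direction. For Rpl36a the arrays barely separated, at 12.3915 for WT HSC of mouse 12 and 12.3914 for WT MPP of mouse 64. Within mice, 6 canonical members were higher in HSC in all 6 animals (Rpl7, Rpl36a, Rpl37a, Rpl41, Rps18 and Rps3a1; 10.9% of 55) and 3 were lower (Rps9, Rps13 and Rps29; 5.45%). Over all genes these shares were 7.73% and 6.19%.

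Mean signals of the 12 copies lay higher on HSC arrays than on MPP arrays. They were 8.59 ± 0.053 in KO HSC and 8.45 ± 0.032 in KO MPP, and 8.56 ± 0.018 in WT HSC and 8.43 ± 0.041 in WT MPP (SD, n = 3 each). HSC arrays lay at 8.55 to 8.65 and MPP arrays at 8.39 to 8.49, a description that was not tested. This mean includes Rpl39l, which lay below the filter of the tests. Copies were not alike: the fitted differences of those tested ran from -0.078 to 0.46 over both genotypes, highest for Rps4l (0.46) and Rpl22l1 (0.39). Of the 11 copies tested, 9 had a positive difference in the mean of both genotypes with a median of 0.093, against 0.047 over all genes, and 0 passed. That median lay between 0.038 and 0.17 over the other settings, lowest with arrays centred on the genes that are not members, where 7 of 11 were above 0. Little difference between groups was seen for Rpl36al, an autosomal copy of the X-linked Rpl36a, which read 11.38 to 11.48 in KO HSC, 11.43 to 11.49 in WT HSC, 11.35 to 11.47 in KO MPP and 11.38 to 11.50 in WT MPP. Rpl10l, a copy of the X-linked Rpl10 known from testis, read 6.79 to 7.13, 6.86 to 7.14, 6.81 to 6.88 and 6.69 to 7.07 in the same order of groups.

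The human Diamond-Blackfan genes and RPS14, whose loss underlies the anaemia of the 5q- syndrome, have 16 mouse counterparts among the members. Limma called none of the 16 in any of the 6 comparisons, with 0 at an unadjusted p under 0.05. Over all genes, 0% to 4.85% were called in these comparisons and 3.19% to 19.6% had such a p. The median differences of the 16 were 0.025 for KO minus WT in HSC and 0.018 for KO minus WT in MPP. For HSC minus MPP they were 0.025 in KO mice and -0.030 in WT mice. Without the HSC array of WT mouse 64, HSC minus MPP in WT mice was 0.014 and KO minus WT in HSC was 0.0081. Rps19, mutated in more of these patients than any other gene, read 10.27, 10.09 and 10.07 in KO HSC, 10.28, 10.01 and 10.02 in WT HSC, 9.88, 10.11 and 10.19 in KO MPP and 9.997, 10.10 and 10.29 in WT MPP. The ranges of the 4 groups overlap, although KO MPP mouse 2 at 9.88 lay below all arrays of the other groups. Rpl11 read 11.82, 11.74 and 11.71 in KO HSC, 11.75, 11.67 and 11.58 in WT HSC, 11.70, 11.57 and 11.56 in KO MPP and 11.75, 11.66 and 11.68 in WT MPP. Rps14 read 11.77, 11.87 and 11.84 in KO HSC and 11.83, 11.73 and 11.37 in WT HSC, and 11.83, 11.86 and 11.92 in KO MPP and 11.86, 11.72 and 11.80 in WT MPP, with the HSC array of WT mouse 64 as its low value.

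Genes that build and serve the ribosome are set beside its proteins here. Of 51 ribosome biogenesis genes limma called 0 between HSC and MPP, where it called 1.26% of all genes in KO mice and 2.07% in WT mice. At an unadjusted p under 0.05 were 5 of the 51 in KO mice, where 12.4% of all genes were. In WT mice 8 were, against 14.1% of all genes. Differences of HSC minus MPP were below 0 for 33 of the 51 in KO mice, with a median of -0.23, and for 42 in WT mice, with a median of -0.30. Over all genes, 6266 of 14620 were below 0 in KO mice and 6698 in WT mice, with the medians of 0.051 and 0.032 given above. The lowest p in WT mice belonged to Heatr1, a factor of early small-subunit processing, which averaged 6.55 ± 0.47 in WT HSC and 7.55 ± 0.22 in WT MPP (SD, n = 3 each), a difference of -0.999 (SE 0.24, adjusted p = 0.0618 by limma), and next came Tcof1, the treacle factor of ribosomal RNA transcription, at -0.79. In KO mice the lowest p belonged to Wdr43 at -0.49 and Pes1 at -0.93. Of 29 translation factors limma called 0, with 1 at an unadjusted p under 0.05 in KO mice and 7 in WT mice, against the same 12.4% and 14.1% of all genes. With the HSC array of WT mouse 64 left out, those at an unadjusted p under 0.05 in WT mice were 4 biogenesis genes and 3 translation factors, where 12.3% of all genes were, and the medians were -0.24 and -0.097. Of the 29 translation factors, 18 were below 0 in KO mice (median -0.069, with Eif2s3x at -1.28 and Eif3b at -0.45) and 25 in WT mice (median -0.18, with Eif4g2 at -0.58 and Eif4h at -0.72). Of 76 mitochondrial ribosomal proteins, which form the separate ribosome of that organelle, limma called 1 in the mean of both genotypes. It was Mrpl13 at -1.20 (SE 0.30, adjusted p = 0.0477 by limma), where 4.85% of all genes were called. It passed in 7 of 16 other settings, with an adjusted p of 0.0353 to 0.179, and not without the HSC array of WT mouse 64 (-1.22, adjusted p = 0.0866). Within genotypes 0 of the 76 passed, and 10 in KO mice and 8 in WT mice had an unadjusted p under 0.05, where 12.4% and 14.1% of all genes did. Fau, whose product is cleaved to a 40S protein, differed by 0.058 in KO mice and -0.015 in WT mice.

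Among 14 genes of translation control, limma called Myc between HSC and MPP in WT mice, where 2.07% of all genes were called. Mycn was called in the mean of both genotypes, where 4.85% of all genes were. Myc, a transcription factor that drives ribosome biogenesis, read 8.64, 8.37 and 7.97 in KO HSC and 8.40, 7.99 and 8.63 in KO MPP, and 7.28, 7.52 and 6.37 in WT HSC and 8.46, 8.96 and 8.19 in WT MPP. It was lower in HSC of WT mice by limma (-1.48, SE 0.32, adjusted p = 0.0435), without overlap, and differed by -0.014 in KO mice (SE 0.32). The call in WT mice held in 7 of 17 other settings, with an adjusted p of 0.0311 to 0.187, and was lost without the HSC array of WT mouse 64 (-1.14, adjusted p = 0.116) and with any of the 6 mice left out. The interaction was 1.47 (SE 0.45, adjusted p = 0.994), and KO minus WT in HSC was 1.27 (SE 0.32, adjusted p = 0.551), so neither passed. Mycn was higher in HSC in the mean of both genotypes by 1.06 (SE 0.21, adjusted p = 0.0168), and passed in 11 of 16 other settings, with an adjusted p of 0.00759 to 0.0768, the call being lost when mouse 2, 3, 12, 64 or 70 was left out. Between genotypes, 0 genes of these lists and 0% of all genes passed in either population. Those of the lists with the lowest p were Polr1a (1.14) and Ubtf (0.41), Eif4g2 (0.46) and Eef1d (0.49), and after Myc Rptor (0.47) in HSC. In MPP they were Taf1b (-1.02) and Rrp1b (-0.36), Eif4e (-0.40) and Eif4h (-0.36), and Mlst8 (-0.76) and Tsc2 (-0.44).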

How the data were processed

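Cells, groups and arrays are described above. Per the labels' protocols, RNA was isolated by a Qiagen method, and 300 pg of it was amplified and labelled with biotin by NuGEN reagents. The authors deposited 1 log2 intensity per probe set and array. RMA and limma are named in the submitters' processing notes, without versions. RMA brings arrays to a common scale, and 40 of the 100 brightest genes are members; whether this reduced a shift shared by them was not tested. The number of arrays limits precision, and replicates are separate mice.

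Of 22142 probe sets, the platform annotation gave 1 symbol to 19527, several to 0 and none to 2615. The brightest probe set was kept for 33 genes with several. The 25% of genes with the lowest mean (below 4.96) were left out and 14620 were tested in 1 limma fit of the 4 group means (R 4.3.3, limma 3.58.1, statmod 1.5.0), two-sided, with Benjamini-Hochberg adjustment over all genes and a threshold of 0.05. The procedure was tested on simulated data. All 68 members matched RefSeq genes by identifier. Members and gene lists were chosen with earlier results of these data known. The text names the members with the 5 highest and 5 lowest differences, signals and standard deviations, all copies, Rpl5, Rpl11, Rps14 and Rps19, and of other lists the called genes or the 2 with the lowest p. Members whose groups did not overlap, and those low on 1 array, were named after their values were seen.

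HSC and MPP arrays pair by mouse, as the labels give the animal. Across genes, deviations from the group mean correlated between an animal's arrays by 0.032 to 0.091, and for 2 of 6 animals the own MPP array was the best match of the HSC array. The mouse was a block in an alternative (random for KO against WT, consensus correlation 0.0723). In all, 17 other settings were run: no filter, a 50% filter, averaged probe sets, a further quantile normalization, centring on non-members, trended robust moderation, array weights, only the arrays compared, the block, each of 6 mice left out, and 2 single arrays left out.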

Additional observations from a re-analysis of the deposited data

Results flagged for a closer look

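Rpsa, the 40S protein also known as the laminin receptor, differed between HSC and MPP in opposite directions in the genotypes. In KO mice it was higher in HSC in all 3 animals, by 0.10, 0.06 and 0.02, and in WT mice it was lower in HSC in all 3, by -0.11, -0.12 and -0.13. The contrast of the genotypes was 0.184 on the log2 scale. The pattern was picked for its signs, without a test; the interaction in limma gave 0.18 (SE 0.16) with an adjusted p near 1. Of 68 members 1 showed such a pattern, and of 14620 genes 292 did. Without the HSC array of WT mouse 64 the Rpsa interaction was 0.17 (SE 0.18). Groups of 3 arrays are too small for a formal test of single outlying arrays.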

How the results depend on the processing

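Over 17 other settings (16 for the interaction and for both genotypes averaged, which have no fit of only the arrays compared), the count of members called stayed 0 in 5 of the 6 comparisons, and in HSC minus MPP over both genotypes it was 1 in 3 settings: after a further quantile normalization (Rpl22l1, 0.47), under trended robust moderation (Rpl7, 0.15) and without the HSC array of WT mouse 64 (Rpl22l1, 0.47). The median member difference changed sign in KO minus WT HSC (-0.0069 to 0.047), HSC minus MPP in KO (-0.0077 to 0.0995) and in WT mice (-0.033 to 0.077), over both genotypes (-0.023 to 0.074) and in the interaction (-0.034 to 0.058), so no direction is given for it; in MPP it lay between 0.0026 and 0.029. The causes were not tested. Over all genes, the count for HSC minus MPP in KO mice (184) was 79 with only the arrays compared, 113 with the mouse as a replicate block, 106 when the HSC array of KO mouse 2 was left out and 57 to 168 with a mouse left out. In WT mice (302) it was 180 with the replicate block, 174 without the HSC array of WT mouse 64 and 70 to 297 with a mouse left out. Over both genotypes (709) it was 379 to 524 with a mouse left out, and in KO minus WT HSC (0) it was 0 to 1. The replicate block changed no call of a member. A p above the threshold does not show equal levels: 95% intervals of single genotype comparisons extended a median of 0.273 to either side for canonical members.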
